A study of Mus musculus with 6 samples.

Results

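The 10 genes described here encode the Sprouty and Spred proteins and the dual-specificity phosphatases that act as feedback inhibitors of ERK signalling, namely Spry1, Spry2, Spry4, Spred1, Spred2, Spred3, Dusp1, Dusp4, Dusp5 and Dusp6. They were taken as a list of names, and their probes were found through the transcript accession that each scanner file pairs with a probe. All 10 were among 44911 genes or unnamed transcripts on the array and among the 23851 that could be tested, and they were read by 14 of 56570 probes. GGCT-OE cells are NIH3T3, an established mouse embryonic fibroblast line, infected with the pCX4bsr retroviral vector carrying GGCT, which encodes gamma-glutamylcyclotransferase, an enzyme of glutathione turnover. The comparison cells, titled empty, are NIH3T3 given the control vector. Both were grown in DMEM with 2% serum and antibiotics, and 3 independent experiments gave 3 arrays of Cy3-labelled total RNA per group. The labels do not say whether the populations were clones or pools, which promoter drove GGCT, from which species the insert came, or whether infection was repeated for each experiment. The p-values therefore measure the spread between these experiments.

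ERK is the last kinase of the cascade that runs from growth factor receptors through RAS, RAF and MEK, and in fibroblasts it carries much of the mitogenic signal of serum, FGF and PDGF. Active ERK induces transcription of its own inhibitors. Sprouty proteins act at the membrane between receptor and RAF, Spred proteins bring the RAS inactivator neurofibromin to the membrane, and the DUSP phosphatases remove the activating phosphates from ERK and, for some members, from JNK and p38. Transcript levels of these genes are often used as a readout of ERK output, but several of them also answer to other signals.

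Levels are log2 signal relative to the 75th percentile of the array, for the brightest probe of a gene unless another probe is named, and differences are GGCT-OE minus empty. The 75th percentiles lay between 380.0 and 471 intensity units, 54.6% to 61.7% of probes were well above background on an array, and no spot was saturated. Replicate 1 of both groups shared slide 1, and replicates 2 and 3 of both groups shared slide 2. Of 12 fibroblast markers 11 were tested, of which 1 was higher and 5 lower in GGCT-OE cells (limma, adjusted p under 0.05). That is 54.5% called, beside 34.8% of all 23851 genes tested (17.5% higher and 17.3% lower). Their summed linear level was 1900.0 to 2419.6 times the 75th percentile on GGCT-OE arrays and 2555 to 3174 times on empty arrays, and Fap was not well above background on any array. Fewer cells of a type and less RNA per cell cannot be told apart in bulk RNA, and the part of this shift in the results below was not tested. Among markers of other cells, Epcam, Cdh1 and Ocln (epithelial), Kdr and Tek (endothelial) and Ptprc and Lyz2 (haematopoietic) stayed below the detection call throughout. The tested ones were Krt8 with a difference of 1.18 as 1 of 7 epithelial markers, 3 of 5 endothelial markers (2 higher, 1 lower) and 4 of 6 haematopoietic markers (0 higher, 1 lower). Ggct itself, read by 1 mouse probe, was higher by 0.62 ± 0.12 in GGCT-OE cells (SE, limma adjusted p = 0.0111), a call that was lost with no filter on dim probes and without replicate 2 or replicate 3 of both groups (adjusted p up to 0.108). That is 1.53-fold, 2719th from the highest of 23851. The species of the insert is not given, so whether this probe reads it, and how far GGCT was raised, cannot be told.

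The genes did not move one way. Spred3, Dusp6 and Spred1 were higher in GGCT-OE cells, and Spry1, Dusp4 and Dusp1 were lower, each past a Benjamini-Hochberg adjusted p of 0.05 in limma. Spry2, Spred2, Dusp5 and the Spry4 probe did not pass. That is 6 of 10 called, 3 in each direction, beside 34.8% of all 23851 tested. By direction the background is 17.5% higher and 17.3% lower. Blocking on the replicate number gave 7 of 10, with the Spry4 probe added, beside 53.4% of all genes. Differences of at least 2-fold were called for 4 of the 10 genes and for 8.95% of all tested. The median difference over the 10 genes was 0.10, beside 0.02 over all tested. Each of the 14 probes stood well above background on every one of the 6 arrays, so none entered the test through 1 group alone. The 3 arrays of one group all lay above the 3 of the other for 7 of the 10 genes, beside 49.4% of all tested. Each of those 7 had p = 0.1 by exact permutation (2-sided), below which a design of 3 against 3 cannot go.

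**Figure D1:**
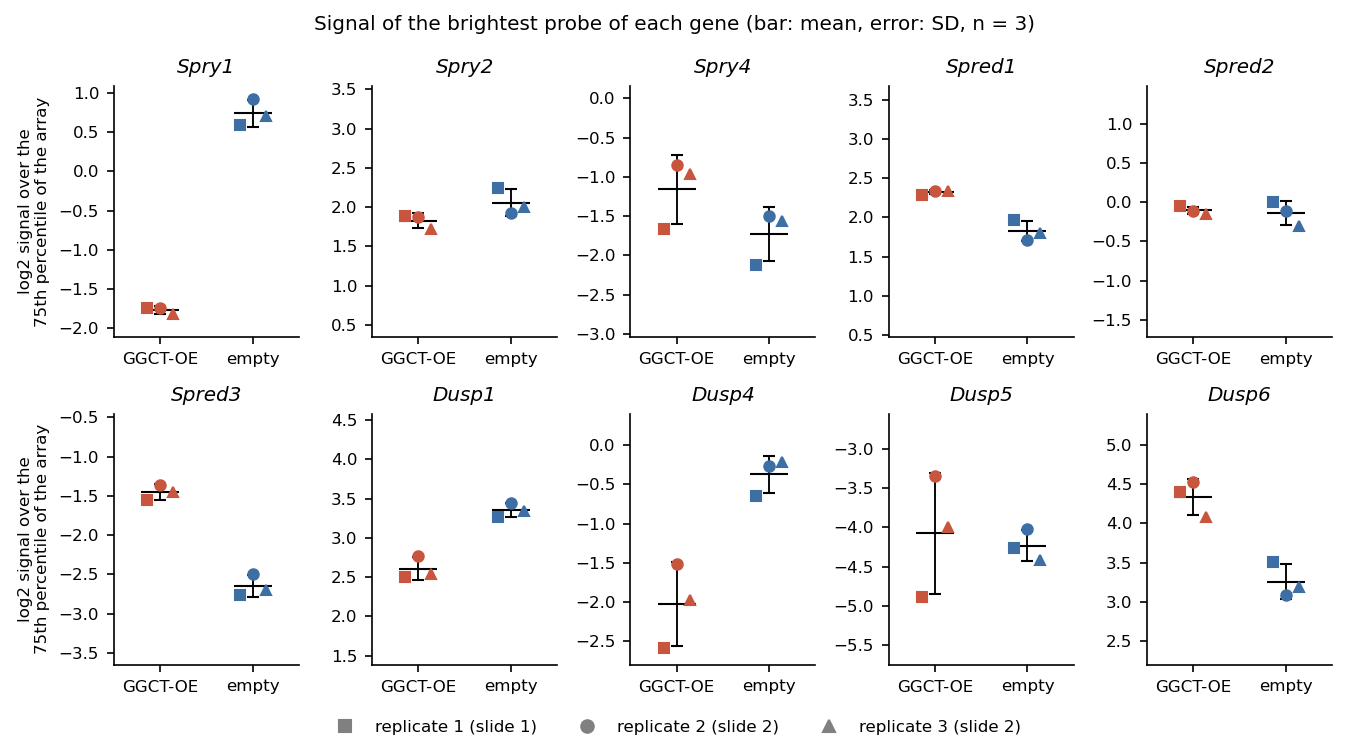
Log2 signal of the brightest probe over the array's 75th percentile (y axis) for each of the 10 genes in GGCT-OE and empty cells. Points are single arrays, shaped by replicate, horizontal bars are means and error bars are SD (n = 3). All panels span the same number of log2 units. Spry1 and Dusp4 sit lower and Spred3 and Dusp6 sit higher in GGCT-OE cells, while the Spred2 and Dusp5 points of the groups overlap.

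To show the regulatory DNA beside the values, the 250 bases upstream of the RefSeq start site were read from the RefSeq promoter table of assembly GRCm38.p6, in which 8 of the 10 genes matched. The table gave the windows at chr3:37639697-37639946 on the plus strand for Spry1, chr17:26508473-26508722 on the minus strand for Dusp1 and chr10:99262981-99263230 on the plus strand for Dusp6. It placed that of Spred3 at chr7:29168648-29168897 on the minus strand and that of Dusp5 at chr19:53528895-53529144 on the plus strand. They are shown for the gene lowered most, for the pair raised most, and for Dusp1 and Dusp5, whose windows held the full cAMP response element and the serum response element. Each runs 5′ to 3′ along the gene's strand and ends next to the start site, and capitals mark a motif match on either strand.
Spry1: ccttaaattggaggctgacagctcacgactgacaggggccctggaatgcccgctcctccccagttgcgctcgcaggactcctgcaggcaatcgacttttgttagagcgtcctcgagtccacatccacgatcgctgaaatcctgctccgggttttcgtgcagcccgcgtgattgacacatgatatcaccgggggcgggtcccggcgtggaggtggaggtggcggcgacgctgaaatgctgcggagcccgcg
Dusp6: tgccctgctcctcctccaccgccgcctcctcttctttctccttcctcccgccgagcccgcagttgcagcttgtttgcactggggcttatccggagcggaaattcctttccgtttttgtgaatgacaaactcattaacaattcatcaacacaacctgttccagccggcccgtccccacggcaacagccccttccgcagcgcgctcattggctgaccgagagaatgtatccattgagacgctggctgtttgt
Spred3: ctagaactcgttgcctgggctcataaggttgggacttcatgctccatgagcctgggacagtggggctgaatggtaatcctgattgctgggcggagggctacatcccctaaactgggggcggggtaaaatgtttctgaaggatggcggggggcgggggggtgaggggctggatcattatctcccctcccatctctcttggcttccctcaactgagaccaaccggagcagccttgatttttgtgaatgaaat
Dusp1: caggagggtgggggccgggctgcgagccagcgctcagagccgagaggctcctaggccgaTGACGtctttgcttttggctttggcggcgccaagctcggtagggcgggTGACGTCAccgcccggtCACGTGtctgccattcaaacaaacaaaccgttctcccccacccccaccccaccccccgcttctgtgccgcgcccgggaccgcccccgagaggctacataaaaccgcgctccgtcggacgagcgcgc
Dusp5: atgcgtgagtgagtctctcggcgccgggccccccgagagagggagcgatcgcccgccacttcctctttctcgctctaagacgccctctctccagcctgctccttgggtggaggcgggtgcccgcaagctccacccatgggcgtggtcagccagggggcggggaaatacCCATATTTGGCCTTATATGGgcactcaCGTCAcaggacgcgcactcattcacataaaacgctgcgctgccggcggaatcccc
In Dusp1 the capitals mark, from the left, the core TGACG of a cAMP response element at bases 191 to 187 before the start, the full palindrome TGACGTCA at 143 to 136, and the E-box CACGTG at 126 to 121. The palindrome holds that core on each strand, and these were counted as cores too. In Dusp5 the capitals mark 2 adjacent CArG boxes, the serum response factor element, at 82 to 73 and 72 to 63, followed by a TGACG core at 55 to 51. The Spred2 window, not printed, held such a core at 51 to 47. Of 32851 windows of this length in the table, 1.55% held the palindrome, 17.8% the core, 6.02% the E-box and 1.47% a CArG box. Neither the AP-1 site TGANTCA (6.75% of windows) nor the ATF4 composite TGATGNAA (3.45%) lay in the 8 member windows. The extended ETS site CCGGAA (12%) was absent from them too, and the shorter ETS core GGAA was not searched. The windows of Spry1, Dusp6 and Spred3 held none of the motifs searched. Dusp1, with the full palindrome, was lower in GGCT-OE cells and Dusp5, with the CArG boxes, did not pass the test. A match is a description of letters in this window and not a measured binding site.

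Among the Sprouty genes, Spry1 fell and Spry2 did not pass the test. Spry1, whose protein restrains FGF and other receptor signalling upstream of RAF, was read by probe A_51_P490136. It stood at -1.74, -1.73 and -1.82 on the GGCT-OE arrays of replicates 1, 2 and 3, and at 0.59, 0.93 and 0.70 on the empty arrays. All 3 GGCT-OE arrays lay below all 3 empty arrays, and their values lay closer together (SD 0.05) than those of the empty arrays (SD 0.17). The means were -1.76 ± 0.05 in GGCT-OE cells and 0.74 ± 0.17 in empty cells (SD, n = 3 each), a difference of -2.51 ± 0.11 (SE), which is 5.68-fold lower (limma, adjusted p = 5.92e-05). It ranked 342nd from the lowest of the 23851 genes tested. Slide 1 gave -2.33 and slide 2 gave -2.59. Under normexp background correction it was -1.97, and it remained called under each of the 23 alternatives.

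Spry2, a close relative that also binds the ubiquitin ligase CBL, had 2 probes. The brighter one, A_52_P368532, read 1.89, 1.88 and 1.72 in GGCT-OE cells and 2.25, 1.92 and 2.00 in empty cells. Each GGCT-OE value lay below each empty value, but GGCT-OE replicate 1 and empty replicate 2 were only 0.03 apart. The difference of -0.23 ± 0.12 (SE) did not pass (limma, adjusted p = 0.179). The same-numbered pairs differed by -0.36, -0.04 and -0.28. The dimmer probe, A_51_P445153, gave -0.11 ± 0.14 (adjusted p = 0.594 over all probes) and its groups overlapped. Of the 23 alternatives, a fit with array weights was the one that brought Spry2 past the threshold (adjusted p = 0.0376).

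The probe read as Spry4, A_52_P204311, is uncertain in identity. The array design file used for slide 2 assigns it to Spry4 and the one used for slide 1 assigns it to Tlx2, a homeobox factor, and the scanner files hold no probe sequence that would settle it. Its values are therefore given for the probe and not for a gene. They were -1.66, -0.85 and -0.97 in GGCT-OE cells and -2.12, -1.50 and -1.57 in empty cells. Replicate 1, on slide 1, was the lowest of its group in both, and GGCT-OE replicate 1 lay below empty replicates 2 and 3, so the groups overlapped. Within each same-numbered pair the GGCT-OE array was higher, by 0.46, 0.65 and 0.60. The mean difference was 0.57 ± 0.27 (SE, limma adjusted p = 0.154). Blocking on the replicate number gave it an adjusted p of 0.00443, and slide 2 alone gave 0.0106. Leaving out GGCT-OE replicate 1 moved the difference to 0.82 (adjusted p = 0.0358).

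Of the Spred genes, Spred3 and Spred1 rose and Spred2 did not pass the test. Spred3, the family member whose protein lacks a functional KIT-binding domain, had the largest increase of the 10 genes in the main fit, on its brighter probe. Its brighter probe, A_66_P108005, read -1.56, -1.35 and -1.45 in GGCT-OE cells and -2.76, -2.49 and -2.70 in empty cells. The lowest GGCT-OE array stood 0.93 above the highest empty array. The means were -1.45 ± 0.10 in GGCT-OE cells and -2.65 ± 0.14 in empty cells (SD, n = 3 each), a difference of 1.20 ± 0.11 (SE), which is 2.29-fold higher (limma, adjusted p = 0.000707). It ranked 589th from the highest of 23851. The other probe, A_55_P2898399, read -2.08, -2.03 and -1.88 in GGCT-OE cells and -2.78, -2.27 and -2.24 in empty cells. Its groups did not overlap either, but its difference was 0.43 ± 0.16 (SE) with an adjusted p of 0.0867 over all probes. In limma this probe passed with the replicate block (adjusted p = 0.0307), the slide block (0.0181) and array weights (0.0223), and in no other alternative. The probes' differences stood 0.76 apart, the widest gap among the 4 genes with 2 probes. Exact permutation of that gap gave p = 0.1, the lowest value that 3 against 3 arrays allow, and limma was not run on it. With the mean of both probes Spred3 differed by 0.82, and under normexp by 0.79, and both remained past the threshold. The Dusp6 increase, 1.08 in each of these runs, was then the larger.

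Spred1, which recruits neurofibromin and is mutated in Legius syndrome in humans, had 2 probes. The brighter one, A_51_P119857, read 2.29, 2.34 and 2.34 in GGCT-OE cells and 1.96, 1.71 and 1.80 in empty cells. The GGCT-OE arrays spanned 0.05 and lay above every empty array. The difference was 0.50 ± 0.09 (SE), 1.41-fold higher (limma, adjusted p = 0.00931). The dimmer probe, A_52_P637689, read -1.39, -0.83 and -1.04 in GGCT-OE cells and -2.19, -1.56 and -1.63 in empty cells. Its groups did not overlap, and its difference was 0.71 ± 0.22 (SE, adjusted p = 0.0477 over all probes). That narrow pass was lost under a median shift (0.0782), with no filter on dim probes (0.131) and on leaving out any single array other than GGCT-OE replicate 1 (0.0637 to 0.137). In the gene fit the call of the brighter probe was lost with no filter on dim probes (0.0521). It was also lost there in the runs that dropped replicate 2 (0.103) or replicate 3 (0.155) from each group. Over all probes it was kept with no filter (limma, adjusted p = 0.0475).

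Spred2, which shares the neurofibromin-binding domain of Spred1, showed no detectable difference on either probe. On the brighter probe, A_55_P2025840, the GGCT-OE arrays lay between -0.15 and -0.05 and the empty arrays between -0.30 and -0.0033. The GGCT-OE range fell inside the empty range. The difference was 0.03 ± 0.10 (SE, limma adjusted p = 0.838). The dimmer probe, A_51_P499683, differed by 0.14 ± 0.30 (adjusted p = 0.761 over all probes), with replicate 1 lowest in both groups. The 14 probes gave 7 calls when every probe was tested on its own, beside 35.2% of all 31110 probes tested.

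**Figure D2:**
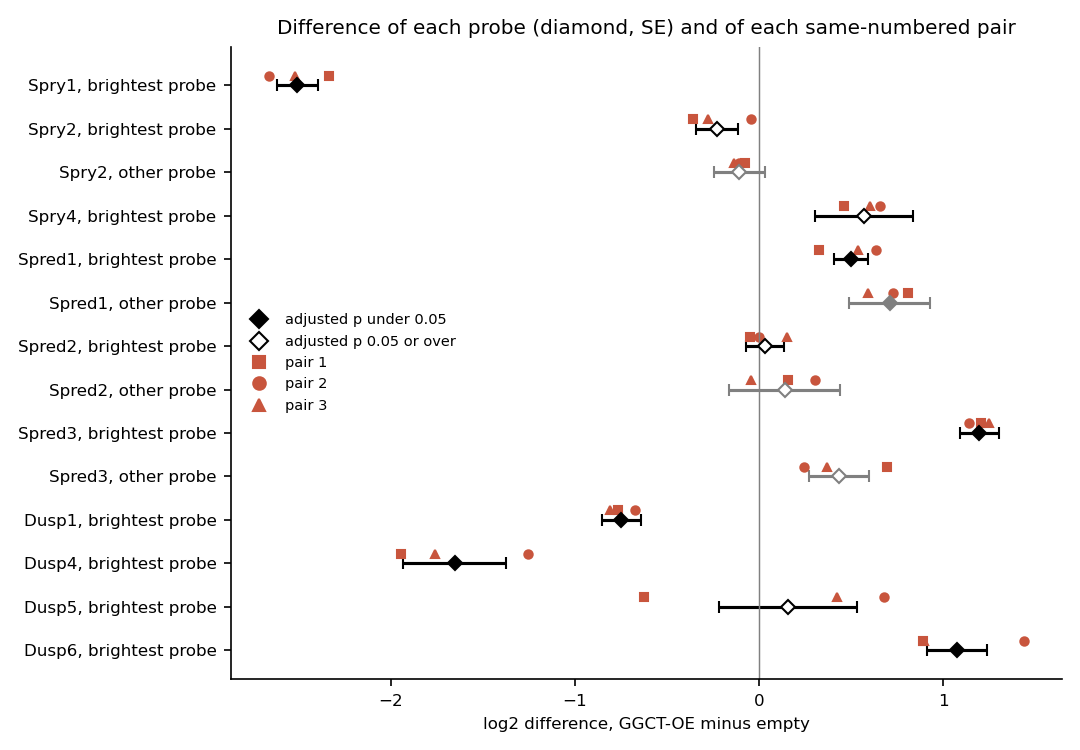
Log2 difference, GGCT-OE minus empty (x axis), of each of the 14 member probes. Diamonds are mean differences with SE from limma over all probes, filled where the adjusted p is under 0.05, grey for a gene's dimmer probe, and small symbols are the 3 same-numbered pairs. The probes of Spred3 stand 0.76 apart, and the Dusp5 pairs lie on both sides of 0.

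Among the phosphatases, the inducible nuclear enzymes Dusp1 and Dusp4 fell and the cytoplasmic ERK phosphatase Dusp6 rose. Dusp1, which acts on p38 and JNK as well as ERK and is a stress and serum response gene, was read by A_55_P2908530. It stood at 2.51, 2.77 and 2.54 in GGCT-OE cells and at 3.27, 3.45 and 3.35 in empty cells. Replicate 2 was the highest array of each group, and the groups did not overlap. The difference was -0.75 ± 0.11 (SE), 1.68-fold lower (limma, adjusted p = 0.00343), with pair differences of -0.76, -0.68 and -0.81. Its promoter window is the one with the full cAMP response element printed above. The call was lost without both arrays of replicate 3 (adjusted p = 0.0876).

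Dusp4, a nuclear phosphatase of ERK, JNK and p38, fell, with a wide spread over the GGCT-OE arrays. Probe A_51_P518051 read -2.59, -1.52 and -1.97 in GGCT-OE cells and -0.64, -0.26 and -0.21 in empty cells. GGCT-OE replicate 1 was the lowest, and the highest GGCT-OE array was still 0.88 below the lowest empty array. The means were -2.03 ± 0.54 in GGCT-OE cells and -0.37 ± 0.23 in empty cells (SD, n = 3 each), a difference of -1.65 ± 0.28 (SE), which is 3.15-fold lower (limma, adjusted p = 0.00659). It ranked 653rd from the lowest of 23851. Under normexp the difference was -1.15, still called, and without both arrays of replicate 3 the adjusted p was 0.0977.

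Dusp5, a nuclear phosphatase specific to ERK, had the largest SE of the 10 genes and did not pass. Probe A_55_P2063237 read -4.88, -3.35 and -3.99 in GGCT-OE cells and -4.26, -4.02 and -4.42 in empty cells. The GGCT-OE arrays covered both ends of the range, with replicate 1 the lowest and replicate 2 the highest of all 6. The pair differences of -0.63, 0.68 and 0.42 had no common sign, and the mean of 0.16 ± 0.38 (SE) did not pass (limma, adjusted p = 0.789). Leaving out GGCT-OE replicate 2 turned the difference to -0.21. At this spread no change of Dusp5 could be told in either direction.

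Dusp6, a cytoplasmic phosphatase specific to ERK, rose. Probe A_51_P502614 read 4.40, 4.53 and 4.08 in GGCT-OE cells and 3.50, 3.09 and 3.19 in empty cells. GGCT-OE replicate 3 was the lowest of its group and still lay 0.58 above the highest empty array, replicate 1. The means were 4.33 ± 0.23 in GGCT-OE cells and 3.26 ± 0.22 in empty cells (SD, n = 3 each), a difference of 1.08 ± 0.16 (SE), which is 2.11-fold higher (limma, adjusted p = 0.00433). It ranked 803rd from the highest of 23851, and its pair differences were 0.89, 1.44 and 0.90. Dropping replicate 2 from each group ended the call (adjusted p = 0.0661), as did dropping replicate 3 (0.0501). Over all probes the run without replicate 3 kept it (limma, adjusted p = 0.0461).

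**Figure D3:**
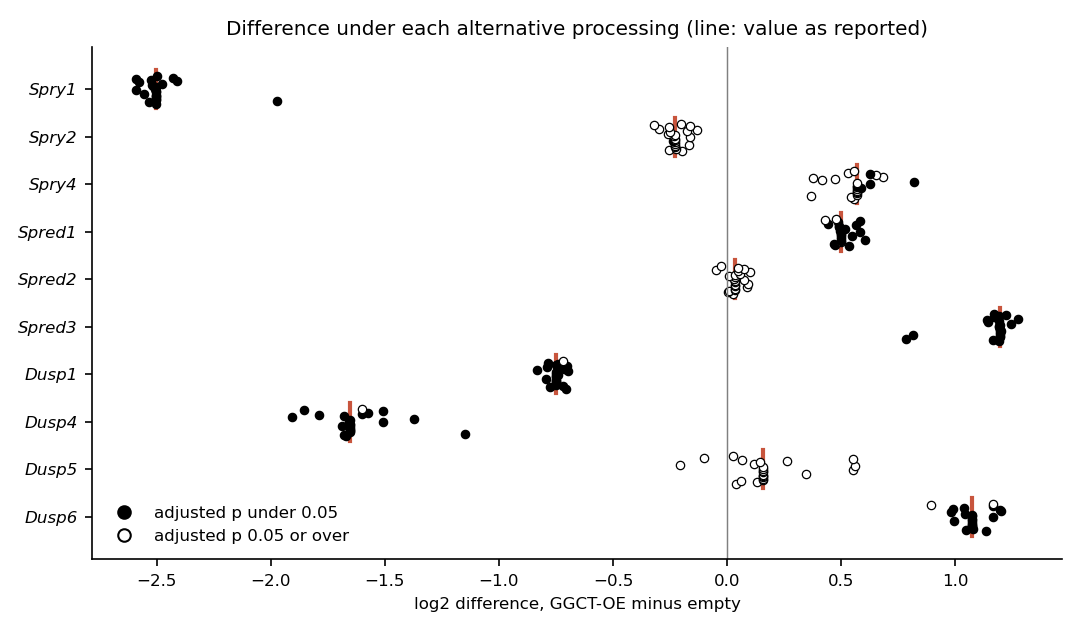
Log2 difference, GGCT-OE minus empty (x axis), of each of the 10 genes under each alternative processing. Points are filled where the adjusted p is under 0.05, and the vertical lines give the values as reported. The 6 called genes keep their sign at every point, while the Spred2 and Dusp5 points fall on both sides of 0.

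Leaving out any single array ended none of the 6 calls. Leaving out both arrays of a replicate number, which leaves 2 against 2, gave 7 calls without replicate 1 (the 6 and the Spry4 probe), 4 without replicate 2 and 2 (Spry1 and Spred3) without replicate 3. Over all genes tested these runs called 38.1%, 12.3% and 7.16%, in that order. The run without replicate 3 still mixes slides, and 1788 genes were called in it.

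The other members of these families gave 4 higher and 1 lower of 7 tested, 71.4% called beside 34.8% of all genes, with a median difference of 0.42. Dusp8, a phosphatase of JNK and p38, fell by 1.24 ± 0.10 (SE, limma adjusted p = 0.000427), and its probes differed by -1.24 and -1.23. Dusp2, a nuclear phosphatase, rose by 0.93 ± 0.12 (adjusted p = 0.00267), by 0.46 under normexp, and lost its call without replicate 2 of both groups (0.0593). Dusp16, a JNK phosphatase, rose by 0.54 ± 0.08 (adjusted p = 0.00355), a call lost without replicate 2 or replicate 3 of both groups. Spry3 rose by 0.61 ± 0.13 (adjusted p = 0.0129). That call was lost with no filter on dim probes, without GGCT-OE replicate 3, and without both arrays of any replicate number. Dusp9, a cytoplasmic ERK phosphatase chosen for mention after its value was seen, rose by 0.42 ± 0.10 (adjusted p = 0.0225). Dusp7, the remaining cytoplasmic ERK phosphatase, differed by 0.10 ± 0.14 (adjusted p = 0.627), and Dusp10, a phosphatase of p38 and JNK, by -0.47 ± 0.16 (adjusted p = 0.0681). Both were also chosen after their values were seen.

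Other genes that ERK induces, or that feed back on it, also went both ways. Of 20 tested, 7 were higher and 4 lower (55.0% called beside 34.8% of all genes, median 0.16). Il17rd, also called Sef and an inhibitor of FGF signalling, fell by 2.52 ± 0.09 (SE, limma adjusted p = 2.84e-05), while its dimmer probe differed by -0.55 (adjusted p = 0.00354). Epha4, an ephrin receptor, was not well above background on any GGCT-OE array and was at least 12.4-fold lower (adjusted p = 8.07e-05), with the bound set by the dimmest signal well above background. The bound rests on the background handling, since under normexp the Epha4 difference was -1.94. Errfi1, an inhibitor of the EGF receptor, rose by 1.46 ± 0.15 (adjusted p = 0.00123). Etv1, an ETS factor, rose by 1.14 ± 0.09 (adjusted p = 0.00049). The related ETS factors Etv4 (0.91, adjusted p = 0.00463) and Etv5 (0.52, adjusted p = 0.021) were higher as well, and were chosen after their values were seen, as were the next genes. Lrig1 (1.89, adjusted p = 0.00248), Hmga2 (1.52, adjusted p = 0.00184) and Phlda1 (0.74, adjusted p = 0.00286) rose. Ccnd1, the D-type cyclin, fell by 0.98 (adjusted p = 0.00767) and Fos, an immediate early gene, fell by 0.70 (adjusted p = 0.0107), while Egr1 differed by -0.82 without passing (adjusted p = 0.0974).

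Of the core cascade from RAS to ERK, 1 gene was higher and 3 were lower of 15 tested (26.7% called beside 34.8% of all genes, median -0.07). Mapk3, which encodes ERK1, fell by 0.73 ± 0.08 (SE, limma adjusted p = 0.00135). Araf, a RAF kinase, fell by 0.44 ± 0.09 (adjusted p = 0.0105, lost without empty replicate 3), and by 1.10 on its other probe. Ksr1, a scaffold of RAF and MEK, fell by 0.47 ± 0.12 (adjusted p = 0.0294). The Ksr1 call was lost on leaving out any single array other than empty replicate 1. Of the adaptors, exchange factors and RAS inactivators, 4 of 11 tested were higher and 0 lower (36.4% called beside 34.8%, median 0.25). Gab1, a docking protein, rose by 0.70 ± 0.07 (adjusted p = 0.00127), and by 0.41 under normexp. The calls of Frs2, the FGF receptor adaptor (0.45), and of Sos2 (0.36) and Grb2 (0.34), which together load RAS, had adjusted p of 0.0149, 0.0298 and 0.0385. Each of the 3 calls was lost without empty replicate 2, empty replicate 3 or GGCT-OE replicate 3, that of Grb2 also without GGCT-OE replicate 2 or empty replicate 1 and under a median shift, and that of Sos2 also without GGCT-OE replicate 1 or 2.

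**Figure D4:**
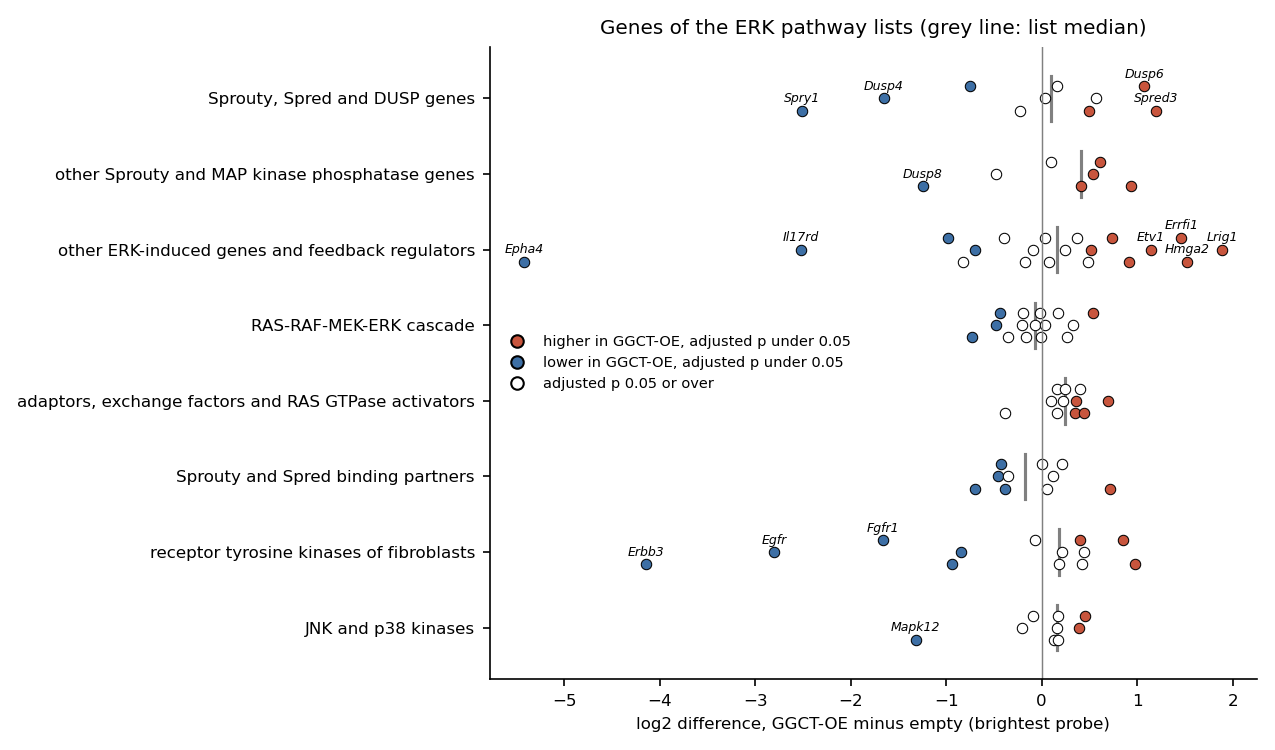
Log2 difference, GGCT-OE minus empty (x axis), of the brightest probe of each tested gene in the 10 Sprouty, Spred and DUSP genes and in 7 other lists. Filled points passed limma at an adjusted p under 0.05, and grey lines are list medians. Epha4 and Egfr are plotted at their measured difference although they were not well above background in GGCT-OE cells. Under the main background handling their bounds are 12.4-fold and 2.23-fold, and under normexp the Epha4 difference was -1.94. Points lie on both sides of 0 in every list.

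Proteins that bind Sprouty or Spred gave 1 higher and 4 lower of 10 tested (50% called beside 34.8% of all genes, median -0.18). Tesk1, a kinase that Sprouty and Spred proteins bind, rose by 0.71 ± 0.09 (SE, limma adjusted p = 0.00225). Mknk1, a kinase downstream of ERK, fell by 0.70 ± 0.10 (adjusted p = 0.00408), while its other probe differed by -0.43 without passing (0.078). Cblb, a ubiquitin ligase, fell by 0.43 ± 0.08 (adjusted p = 0.0094), and Cav1, the caveolar coat protein, by 0.46 ± 0.10 (adjusted p = 0.0134, lost without empty replicate 2, empty replicate 3 or GGCT-OE replicate 3). Of the receptor tyrosine kinases, 3 were higher and 5 lower of 13 tested (61.5% called beside 34.8%, median 0.18). Fgfr1, the main FGF receptor of fibroblasts, fell by 1.66 ± 0.12 (adjusted p = 0.000319), and its 4 probes lay between -1.83 and -1.66. Erbb3, a receptor of neuregulins, fell by 4.14 ± 0.17 (adjusted p = 4.69e-05). Pdgfrb fell by 0.94 ± 0.10 (adjusted p = 0.00134) and Met, the receptor of hepatocyte growth factor, rose by 0.98 ± 0.10 (adjusted p = 0.000935). The JNK and p38 kinases, on which Dusp1 and Dusp4 also act, gave 2 higher and 1 lower of 9 tested. That is 33.3% called beside 34.8%, with a median of 0.16. Mapk12, a p38 kinase, fell by 1.32 ± 0.10 (adjusted p = 0.00033). Mapk11, another p38 kinase, rose by 0.45 ± 0.09 (adjusted p = 0.01), and Map2k6, which activates p38, by 0.40 ± 0.09 (adjusted p = 0.017, lost under a median shift and without empty replicate 2, empty replicate 3 or GGCT-OE replicate 3). Mapk9, a JNK kinase, differed by 0.17 without passing (adjusted p = 0.154).

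The genes whose pattern over the 6 arrays lay nearest to that of Spry1 were sought among 14156 tested genes with a symbol, each centred on its own mean. Fam20a, a pseudokinase of the secretory pathway, came first at a root mean square distance of 0.0768 log2 units and a difference of -2.50. Ccl9, a chemokine, followed at 0.0975 with a difference of -2.37. Tmem176b, a membrane protein, was next at 0.103 with a difference of -2.53. These distances describe likeness over 6 arrays of 2 groups.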

How the data were processed

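The 6 arrays were deposited as scanner files. Spot intensity was background-subtracted and detrended, per the file headers, by Agilent Feature Extraction in version 12.1.0.3. The deposited series table holds log2 values that equalled the log2 processed intensity minus 1 constant per array (correlation 1 over 16401 probes brighter than 200, column medians -3.88 to -3.70).

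Control spots (3671 of 62976) and 578 outlier-flagged spots were dropped, and spots of a probe were averaged, leaving 56570 probes. Accessions matched to the RefSeq table of GRCm38.p6 named 34541 of them (61.1%). The files carry 2 versions of the array design, in which 332 probes are named as different genes, and the later was used. Each array's 75th percentile was subtracted from its log2 intensity. Testing used a gene's brightest probe, if 1 group or both had it well above background in triplicate, and ran in limma 3.58.1 in R 4.3.3 (2-sided, no block, Benjamini-Hochberg over 23851). Bounds ("at least N-fold") set the bright group's mean against, array by array, whichever is higher in the dim group, the probe itself or the lowest signal called well above background.

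The members and lists were chosen with earlier results of these data known. Text names every member and probe, Ggct, up to 4 tested genes per list with the smallest p, and the 3 genes nearest in pattern to the most changed member, and 1 gene that this rule takes is not reported here. Deviations from group means correlated at 0.731, 0.453 and 0.358 for same-numbered arrays across genes. Arrays of slide 2 with different numbers correlated at 0.343 and 0.300, close to the 0.358 of pair 3 on the same slide. All 3 pairs exceeded 0.1, but so did the slide 2 arrays with different numbers. This cutoff therefore does not tell a pair from a shared slide. The title numbers were taken to pair the samples in the replicate block and the pair differences, and the main fit left the pairing out. Alternatives covered normalization, background, filter, probe choice, variance model, blocks, probe names and left-out arrays. The number of arrays limits precision.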

Additional observations from a re-analysis of the deposited data

How the results depend on the processing

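The 6 called genes (Spry1, Spred1, Spred3, Dusp1, Dusp4 and Dusp6) kept their sign under all 23 alternatives, and Spry1 and Spred3 also kept their call in each. The alternatives are not independent. Changes of filter, variance model, block or probe names, and every probe on its own, left the difference of these genes at its main value. In those runs only the call could change, not the sign. Slide 2 alone and the run without replicate 1 use the same arrays. Genes called numbered 8294, against 4726 with no filter on dim probes, 12855 with array weights, 12726 with the replicate number as a block, 12792 with the slide as a block, and 1788 to 9138 when an array or a replicate number was left out. Probes called numbered 10942, against 6461 with no filter, 16682 with array weights, 16681 with the replicate block, 16761 with the slide block, and 2521 to 12132 with arrays left out. Member genes called numbered 6, against 7 with the replicate block, where the Spry4 probe was added and no other member call changed, 8 with array weights, 5 with no filter, and 2 to 7 with arrays left out. Member probes called numbered 7, against 9 with either block, 10 with array weights, 6 with no filter and 3 to 8 with arrays left out. With arrays left out the Spred2 difference ran from -0.05 to 0.10, turning to -0.048 without empty replicate 3 and -0.03 without replicate 3. The Dusp5 difference ran from -0.21 to 0.56, turning to -0.21 without GGCT-OE replicate 2 and -0.10 without replicate 2. Fewer samples enter these last runs. The cause of the other shifts was not tested.

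Of the 28 called genes that the naming rule takes from outside the members, 10 kept their call in every alternative and 0 reversed. Of 322 list counts, 60 moved by over 1.5 times or went to or from 0. The version of the array design matters for 1 member. Under the earlier version, an alternative added after seeing the data, no probe carries Spry4, and 6 of the remaining 9 members were called. The spread of the Dusp5 probe limits what 3 arrays a group can show.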
